A study of Rattus norvegicus with 12 samples.

Results

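The genes described here are 10 members of Toll-like receptor 4 signalling and its relatives, taken by symbol from the gene tables of rat dorsal root ganglia, where the cell bodies of sensory neurons lie next to the spinal cord. They are the receptors Tlr2, Tlr3, Tlr4, Tlr5 and Tlr7, the co-receptors Cd14 and Ly96, the adaptors Myd88 and Ticam1 and the kinase Irak4. The tables hold 20152 genes in all, and each of the 10 was listed in all 12 libraries and passed the expression filter. There were 4 libraries from rats given paclitaxel, 4 from rats given oxaliplatin and 4 from rats given vehicle. Paclitaxel, a drug that stabilises microtubules, was given at 2.0 mg/kg in DMSO diluted with saline. Oxaliplatin, a platinum compound that damages DNA, was given at 2.4 mg/kg in 5.0% glucose. Both drugs were given intraperitoneally to cause painful neuropathy, and the labels do not say which solvent the single vehicle group received. They also give neither strain, sex, age nor sampling day, and do not say whether the replicates are separate animals, so p-values reflect only how far these libraries vary, which may be technical variation.

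Toll-like receptors are receptors of innate immunity that recognise microbial molecules and, for some of them, molecules released by damaged cells. TLR4 recognises bacterial lipopolysaccharide together with its partner MD-2, the product of Ly96, after CD14 has handed the lipid over. The adaptor MyD88 recruits the kinase IRAK4 and leads to NF-kappaB, whereas TRIF, the product of Ticam1, serves TLR3 and internalised TLR4 and leads to interferon regulatory factors. Macrophages carry many of these receptors, and TLR4 has also been described in sensory neurons.

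Library totals ran from 17008728 to 17615736 estimated counts, and tests covered 15809 genes. Levels are given as CPM, estimated counts scaled to library size by the TMM method. Differences are log2 fold changes, each ± its standard error, from edgeR's quasi-likelihood test. A gene is called where its Benjamini-Hochberg adjusted p over all genes tested is under 0.05. The tissue label was checked on 20 neuron markers, all of which were expressed, with summed levels of 25500 to 34700 CPM after paclitaxel, 18100 to 23000 CPM after oxaliplatin and 24800 to 28200 CPM in vehicle. Libraries of whole ganglia mix cell types, so fewer cells of a type and less RNA per cell cannot be told apart.

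Promoter sequences were found for 8 of the 10 members in a RefSeq table of assembly GRCr8, and those of Ly96 and Ticam1 are named only. Shown are the 4 windows that lay wholly outside the annotated gene. They belong to the receptors Tlr4 and Tlr3 and the signalling genes Myd88 and Irak4. Each gives the 250 bases before the gene's start, 5′ to 3′ in the direction of transcription. The build behind the expression tables is not given in the sources used here, and no expression value depends on these coordinates.
Tlr4 (chr5:85160997-85161246, + strand): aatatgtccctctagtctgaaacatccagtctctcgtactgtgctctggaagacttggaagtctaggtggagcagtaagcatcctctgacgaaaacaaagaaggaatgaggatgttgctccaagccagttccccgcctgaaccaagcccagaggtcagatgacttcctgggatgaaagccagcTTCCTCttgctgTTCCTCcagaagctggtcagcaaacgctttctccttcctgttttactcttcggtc
Tlr3 (chr16:53554666-53554915, + strand): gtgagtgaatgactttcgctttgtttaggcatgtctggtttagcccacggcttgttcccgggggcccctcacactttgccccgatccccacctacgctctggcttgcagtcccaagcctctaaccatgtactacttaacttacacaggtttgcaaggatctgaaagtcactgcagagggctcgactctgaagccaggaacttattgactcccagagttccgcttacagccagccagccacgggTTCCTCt
Irak4 (chr7:127561527-127561776, + strand): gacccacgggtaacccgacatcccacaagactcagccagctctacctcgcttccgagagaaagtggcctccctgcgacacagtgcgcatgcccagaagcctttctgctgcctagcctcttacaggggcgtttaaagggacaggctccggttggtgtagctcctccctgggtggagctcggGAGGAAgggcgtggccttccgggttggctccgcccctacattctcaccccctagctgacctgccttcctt
Myd88 (chr8:127956231-127956480, - strand): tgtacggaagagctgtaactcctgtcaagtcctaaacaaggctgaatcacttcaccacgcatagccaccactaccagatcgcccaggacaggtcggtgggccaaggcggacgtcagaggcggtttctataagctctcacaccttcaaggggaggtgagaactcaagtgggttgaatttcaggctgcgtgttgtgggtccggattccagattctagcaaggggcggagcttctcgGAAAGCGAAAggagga
Capitals mark matches to the letters GAGGAA, the core bound by the myeloid factor PU.1, on either strand, and an interferon response pattern of 2 GAAA runs with any 2 bases between them, also on either strand. The PU.1 core starts 67 and 55 bases before the start of Tlr4, 7 before that of Tlr3 and 70 before that of Irak4, and 23.3% of 33469 rat promoter windows of this length hold it. The interferon pattern starts 16 bases before the start of Myd88, and 3.41% of windows hold it. A kappaB pattern, which reads GGG, any 2 bases, TT, any base and CC, occurred in none of the 4 windows and in 4.36% of all windows. In the other 4 windows found, which are not printed, the kappaB pattern occurred in that of Tlr2, and the PU.1 core at 2 places in that of Cd14 and once in that of Tlr7. No match in the printed windows overlapped another, and a match of letters is not evidence of binding.

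Levels per transcript length, in deposited FPKM, placed Myd88 first and Tlr5 last in every group. In vehicle libraries Myd88 averaged 6.46 ± 0.531 FPKM (SD, n = 4), Cd14 3.54 ± 0.821 FPKM, Irak4 3.5 ± 0.269 FPKM and Ly96 2.74 ± 0.347 FPKM. Below them came Tlr4 at 1.78 ± 0.288 FPKM, Tlr2 at 1.62 ± 0.401 FPKM, Ticam1 at 1.38 ± 0.191 FPKM, Tlr3 at 1.27 ± 0.212 FPKM, Tlr7 at 1.19 ± 0.377 FPKM and Tlr5 at 0.397 ± 0.177 FPKM. In vehicle the only neighbours whose ranges over libraries did not overlap were Myd88 and Cd14, Ly96 and Tlr4, and Tlr7 and Tlr5. After paclitaxel Irak4 stood second at 3.92 ± 0.672 FPKM and Cd14 next at 2.98 ± 0.646 FPKM, with overlapping ranges. After oxaliplatin Cd14 stood second at 5.46 ± 0.181 FPKM and Irak4 next at 4.0 ± 0.35 FPKM, without overlap.

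**Figure D1:**
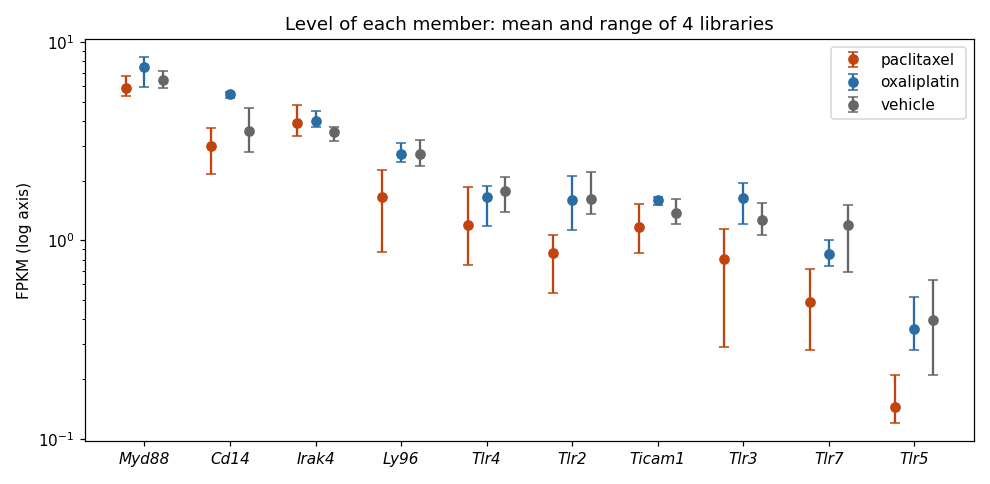
FPKM of each member on a log axis, with the mean as a point and the range of 4 libraries as a bar, for paclitaxel, oxaliplatin and vehicle. Myd88 is highest and Tlr5 lowest in each group, and the paclitaxel mean of every member except Irak4 lies below its vehicle mean.

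The first comparison asked how the members' levels after paclitaxel differed from vehicle. The log2 fold changes of 9 of the 10 members were negative, with a median of -0.58, against -0.01 over all genes tested. None of the 10 was called by edgeR's quasi-likelihood test, in a comparison where 0.12% of genes were called. At an unadjusted p under 0.05, 5 members lay below vehicle (Tlr2, Tlr4, Tlr5, Tlr7 and Ly96), where 7.88% of genes did. DESeq2 called 2 members (Tlr5 and Tlr7) and 1.44% of all genes. Limma voom with quality weights called 4 members (Tlr2, Tlr4, Tlr5 and Tlr7) and 12.8% of all genes, and limma-trend on FPKM called 0 members.

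Tlr7, a receptor for single-stranded RNA inside endosomes, had 1.39, 2.29, 2.07 and 3.37 CPM after paclitaxel, against 5.14, 6.31, 6.81 and 3.1 CPM in vehicle. Of the paclitaxel libraries 3 lay below every vehicle library, and the highest paclitaxel value exceeded the lowest vehicle value. Its log2 fold change was -1.22 ± 0.27, with an adjusted p of 0.137. Tlr5, the receptor for bacterial flagellin, had 0.544, 0.997, 0.71 and 0.523 CPM after paclitaxel, against 1.56, 0.994, 3.2 and 1.89 CPM in vehicle. The groups overlapped only through the values 0.997 and 0.994. Its log2 fold change was -1.45 ± 0.36, with an adjusted p of 0.19, and it rests on 9 to 17 counts per paclitaxel library and 17 to 56 per vehicle library.

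Tlr2, which senses bacterial lipoproteins, had 1.51, 2.87, 2.6 and 2.96 CPM after paclitaxel, against 3.76, 4.27, 5.78 and 3.9 CPM in vehicle. Every paclitaxel library lay below every vehicle library, and the log2 fold change was -0.83 ± 0.25, with an adjusted p of 0.204. Ly96, which encodes the lipopolysaccharide-binding partner of TLR4, had 0.907, 2.29, 1.3 and 2.15 CPM after paclitaxel, against 2.66, 3.22, 2.35 and 2.58 CPM in vehicle. Its groups did not overlap either, and the log2 fold change was -0.70 ± 0.26, with an adjusted p of 0.239. Tlr2 and Ly96 were the 2 members that lay below vehicle without overlap, where 3.08% of genes did. The reads of Ly96 were not whole in 7 libraries, so part of them may be shared with another gene.

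Tlr4 itself had 2.72, 3.7, 3.97 and 6.27 CPM after paclitaxel, against 4.68, 6.14, 7.04 and 6.31 CPM in vehicle. The fourth paclitaxel library lay within the vehicle range and the other 3 below it. Its log2 fold change was -0.54 ± 0.23 (95% interval -1.04 to -0.03), with an adjusted p of 0.272. Tlr3, an endosomal receptor for double-stranded RNA, had 1.27, 2.99, 4.32 and 4.41 CPM after paclitaxel, against 5.09, 6.25, 4.69 and 3.96 CPM in vehicle. The groups overlapped, and the log2 fold change was -0.62 ± 0.30, with an adjusted p of 0.301.

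The signalling genes and Cd14 had estimates nearer 0 than the receptors. Myd88 had 13.4, 13.4, 15.0 and 16.2 CPM after paclitaxel, against 15.3, 15.0, 16.5 and 15.1 CPM in vehicle, with a log2 fold change of -0.09 (95% interval -0.33 to 0.14). Irak4 had 8.28, 10.9, 8.23 and 9.29 CPM after paclitaxel, against 8.03, 7.19, 8.35 and 7.52 CPM in vehicle, and was the 1 member with a positive log2 fold change, 0.24 (95% interval -0.03 to 0.51). The intervals of Cd14, -0.56 to 0.21, and of Ticam1, -0.65 to 0.21, also include 0. The estimated counts of Cd14, Ticam1 and Irak4 were not whole in 12 of 12 libraries, so these 3 genes are uncertain: reads may be divided with another gene. The groups overlapped for Myd88, Irak4, Cd14 and Ticam1.

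**Figure D2:**
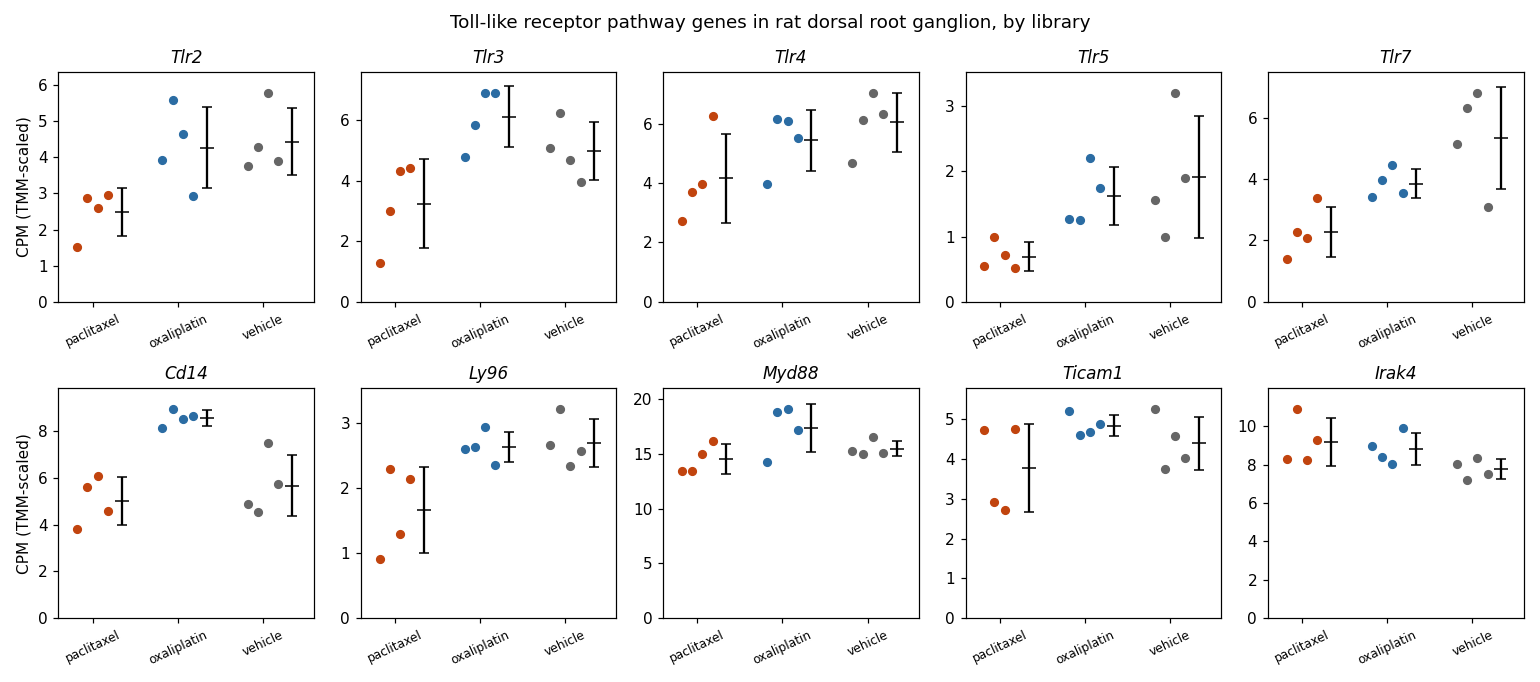
CPM of each member in every library, for paclitaxel, oxaliplatin and vehicle (points), with the mean and SD of 4 libraries beside each group. The paclitaxel libraries of Tlr2 and Ly96 lie below all vehicle libraries, and the oxaliplatin libraries of Cd14, at 8.14 to 8.96 CPM, lie above all others.

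Individual paclitaxel libraries moved these values. The first paclitaxel library was the lowest of the 12 for Tlr2, Tlr3, Tlr4, Tlr7, Cd14 and Ly96, and without it the log2 fold change of Tlr3 was -0.35 and that of Tlr4 -0.38, with no member called. The fourth had the highest Tlr2, Tlr3, Tlr4 and Tlr7 values of its group. Without the fourth, Tlr2 (adjusted p = 0.0489), Tlr4 (adjusted p = 0.036) and Tlr7 (adjusted p = 0.0201) were called lower by edgeR, and the genes called in the whole comparison numbered 1631 in place of 19.

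Markers of several cell types lay apart from vehicle in the same libraries. All 24 of 24 listed macrophage markers had negative log2 fold changes after paclitaxel, with a median of -0.77. Their summed level was 191 to 349 CPM after paclitaxel and 386 to 644 CPM in vehicle. At an unadjusted p under 0.05, 22 of them were lower, where 7.88% of genes were. Without overlap, 14 of them lay below vehicle, where 3.08% of genes did. EdgeR called 2 of them lower. Spi1, which encodes PU.1, averaged 6.91 ± 0.361 CPM after paclitaxel and 11.8 ± 1.6 CPM in vehicle (edgeR, adjusted p = 0.0132). Adgre1, which encodes the macrophage surface protein F4/80, averaged 6.73 ± 1.72 CPM after paclitaxel and 17.7 ± 3.61 CPM in vehicle (edgeR, adjusted p = 0.0194). Both calls were lost without any 1 of vehicle libraries 1, 2 and 3 or of paclitaxel libraries 1 and 3, and that of Adgre1 also without paclitaxel library 2. That of Spi1 was also lost when only the 2 groups were fitted (adjusted p = 0.0519) and that of Adgre1 with the replicate block (adjusted p = 0.0647), with adjusted p-values over these settings of up to 0.0769 for Spi1 and 0.111 for Adgre1. Neutrophil markers had negative estimates for 10 of 10 tested genes, with summed levels of 9.13 to 32.4 CPM after paclitaxel and 36.9 to 62.5 CPM in vehicle, and 0 were called (8 at an unadjusted p under 0.05). Of 8 T cell markers, 6 were under the expression filter, among them Cd3e, Cd3d and Cd3g. The lists of fibroblast markers (median -0.42), erythroid markers (median -0.86) and satellite glia markers (median -0.36) each had negative log2 fold changes for 8 of 8 genes, and neuron markers had positive ones for 17 of 20 (median 0.18). None of these 4 lists held a gene called by edgeR, and at an unadjusted p under 0.05 they held 6, 3 and 3 lower and, for the neuron markers, 8 higher. The part of these cell types in the members' differences was not tested.

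Set against the mean log2 level of the 24 macrophage markers in the same library, most genes lay higher after paclitaxel, where the markers themselves lay lower. The ratios of 67.4% of all genes tested lay above vehicle without overlap. Among the members 2 did so, Myd88 and Irak4. The log2 ratio of Tlr2 to the markers averaged -1.75 ± 0.05 after paclitaxel and -1.76 ± 0.17 in vehicle, and that of Ly96 -2.34 ± 0.33 after paclitaxel and -2.44 ± 0.30 in vehicle, each with overlapping groups. The ratio of Myd88 was 0.49 to 1.28 after paclitaxel and -0.16 to 0.30 in vehicle, and that of Irak4 -0.19 to 0.60 after paclitaxel and -1.21 to -0.69 in vehicle. The differences of the means were 0.74 for Myd88 and 1.06 for Irak4. The ratio of Cd14 averaged -0.75 ± 0.27 after paclitaxel and -1.41 ± 0.34 in vehicle, with overlap, and those of Tlr3, Tlr4, Tlr5, Tlr7 and Ticam1 also overlapped. These ratios are descriptions of levels and carry no test.

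**Figure D3:**
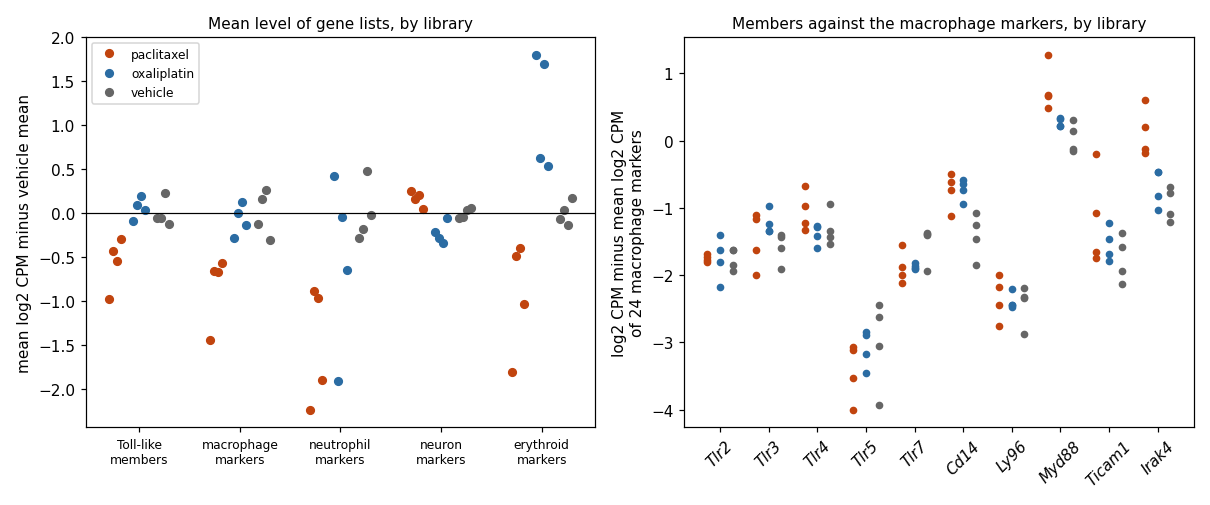
Left, mean log2 CPM of 5 gene lists in each library minus the vehicle mean, for paclitaxel, oxaliplatin and vehicle. Right, log2 CPM of each member minus the mean log2 CPM of 24 macrophage markers in the same library. The macrophage score is -1.44 to -0.57 in paclitaxel libraries and -0.30 to 0.26 in vehicle libraries, and the paclitaxel ratios of Myd88 and Irak4 lie above all vehicle ratios.

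The second comparison asked the same of oxaliplatin against vehicle. Of the 10 members, 5 had positive and 5 negative log2 fold changes, with a median of 0.05 against 0.01 over all genes tested. None was called by edgeR, where 1.76% of genes were, and 1 reached an unadjusted p under 0.05, which 9.18% of genes did in that direction. That member, Cd14, was also called by DESeq2 (adjusted p = 0.0405) and by limma voom with quality weights (adjusted p = 0.0421), the only member either tool called. DESeq2 called 5.72% of all genes and voom 3.79%, and limma-trend on FPKM called 0 members.

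Cd14, the co-receptor that passes lipopolysaccharide to TLR4, had 8.14, 8.96, 8.53 and 8.65 CPM after oxaliplatin, against 4.91, 4.56, 7.5 and 5.74 CPM in vehicle. Every oxaliplatin library lay above every vehicle library, and it was the 1 member to do so, where 5.54% of genes did. Its log2 fold change was 0.59 ± 0.18 (95% interval 0.22 to 0.97), with an adjusted p of 0.105. Without vehicle library 3, the highest of its group, the gene was called by edgeR (adjusted p = 0.0479). Its counts were not whole in 12 libraries, so the gene is uncertain. Its ratio to the macrophage markers was -0.94 to -0.59 after oxaliplatin and -1.85 to -1.08 in vehicle, again without overlap. The ratio of Tlr3, at -1.34 to -0.97 after oxaliplatin and -1.91 to -1.40 in vehicle, did not overlap either, and 3.91% of all genes tested lay above vehicle in this way.

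The remaining receptors and Ly96 overlapped between oxaliplatin and vehicle. Tlr4 had 3.98, 6.15, 6.1 and 5.51 CPM after oxaliplatin, against 4.68, 6.14, 7.04 and 6.31 CPM in vehicle, with a log2 fold change of -0.15 (95% interval -0.65 to 0.34). Tlr7 had 3.41, 3.96, 4.46 and 3.54 CPM after oxaliplatin, against 5.14, 6.31, 6.81 and 3.1 CPM in vehicle, with a log2 fold change of -0.47 (95% interval -1.04 to 0.09). The intervals were -0.57 to 0.46 for Tlr2, -0.32 to 0.91 for Tlr3, -0.96 to 0.48 for Tlr5 and -0.57 to 0.50 for Ly96. Myd88, with 14.3 to 19.1 CPM after oxaliplatin and 15.0 to 16.5 CPM in vehicle, had an interval of -0.06 to 0.40. That of Ticam1 was -0.29 to 0.56 and that of Irak4 -0.09 to 0.45. Macrophage markers had a median log2 fold change of -0.12, with 10 of 24 positive and 0 called by edgeR (2 higher and 3 lower at an unadjusted p under 0.05). Other lists lay further from vehicle: erythroid markers had 8 of 8 positive estimates (median 1.33), B cell markers 7 of 7 (median 1.72) and endothelial markers 9 of 10 (median 0.36), with 0 called by edgeR and 8, 6 and 5 higher at an unadjusted p under 0.05. The mean log2 level of the B cell markers, minus the vehicle mean, was 2.14, -0.11, 2.03 and 0.34 in oxaliplatin libraries 1 to 4. In vehicle libraries it was -0.08 to 0.1, and 0 of these markers lay above vehicle without overlap. Of 20 neuron markers 3 were called lower after oxaliplatin, where 1.76% of all genes were called in either direction. The part of these lists in the difference of Cd14 was not tested.

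The third comparison set the drugs directly against each other. The log2 fold changes of 9 of 10 members were positive, with a median of 0.71 against 0.0 over all genes tested. Cd14 and Tlr5 were called, both higher after oxaliplatin, in a comparison where 11.3% of genes were called, 6.6% higher and 4.71% lower. At an unadjusted p under 0.05, 7 members were higher, where 15.6% of genes were. In 5 members (Tlr3, Tlr5, Tlr7, Cd14 and Ly96) every oxaliplatin library lay above every paclitaxel library, which 9.17% of genes did. DESeq2 called 4 members, Tlr2, Tlr3, Tlr5 and Cd14, and 16.8% of all genes. Limma voom with quality weights called 8 members and 29.9% of all genes.

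Cd14 was higher after oxaliplatin, at 8.14, 8.96, 8.53 and 8.65 CPM, against 3.81, 5.63, 6.1 and 4.59 CPM after paclitaxel. The lowest oxaliplatin library lay above the highest paclitaxel library. The log2 fold change was 0.77 ± 0.18, a 1.70-fold difference (edgeR, adjusted p = 0.0186). The call was lost without paclitaxel library 1 (adjusted p = 0.051) or oxaliplatin library 3 (adjusted p = 0.0526). Counts of this gene were not whole in 12 libraries, so it is uncertain. The ratio of Cd14 to the macrophage markers averaged -0.73 ± 0.15 after oxaliplatin and -0.75 ± 0.27 after paclitaxel, with overlap. The ratios of Myd88, at 0.27 ± 0.07 after oxaliplatin and 0.78 ± 0.34 after paclitaxel, and of Irak4, at -0.69 ± 0.28 after oxaliplatin and 0.12 ± 0.36 after paclitaxel, lay lower after oxaliplatin without overlap, as did those of 56.4% of all genes tested.

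Tlr5 was higher after oxaliplatin, at 1.27, 1.26, 2.2 and 1.74 CPM, against 0.544, 0.997, 0.71 and 0.523 CPM after paclitaxel. The groups did not overlap, and the log2 fold change was 1.21 ± 0.37 (edgeR, adjusted p = 0.0481). This gene had 22 to 39 counts per oxaliplatin library and reached the filter's minimum of 0.58 CPM in only 2 of 4 paclitaxel libraries. Leaving out any 1 of the 8 drug libraries, or vehicle library 1 or 4, ended the call, with adjusted p-values of 0.0578 to 0.144, and with the filter removed the adjusted p was 0.0544.

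The receptors next to the threshold were Tlr2 and Tlr3. Tlr3 had 4.79, 5.86, 6.89 and 6.91 CPM after oxaliplatin, against 1.27, 2.99, 4.32 and 4.41 CPM after paclitaxel, without overlap, and a log2 fold change of 0.91 ± 0.29 (edgeR, adjusted p = 0.0603). Tlr2 had 3.93, 5.57, 4.63 and 2.92 CPM after oxaliplatin, against 1.51, 2.87, 2.6 and 2.96 CPM after paclitaxel. One oxaliplatin library of Tlr2 lay within the paclitaxel range, and the log2 fold change was 0.77 ± 0.25 (edgeR, adjusted p = 0.059). Tlr7 was at 0.75 ± 0.28 (adjusted p = 0.0904), Ly96 at 0.66 ± 0.26 (adjusted p = 0.107), Tlr4 at 0.38 ± 0.23 (adjusted p = 0.297) and Myd88 at 0.26 ± 0.11 (adjusted p = 0.125) on the log2 scale in the same edgeR fit. Ticam1 had an interval of -0.07 to 0.78. Irak4 was the 1 member with a negative estimate, -0.06, and its interval was -0.32 to 0.20.

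**Figure D4:**
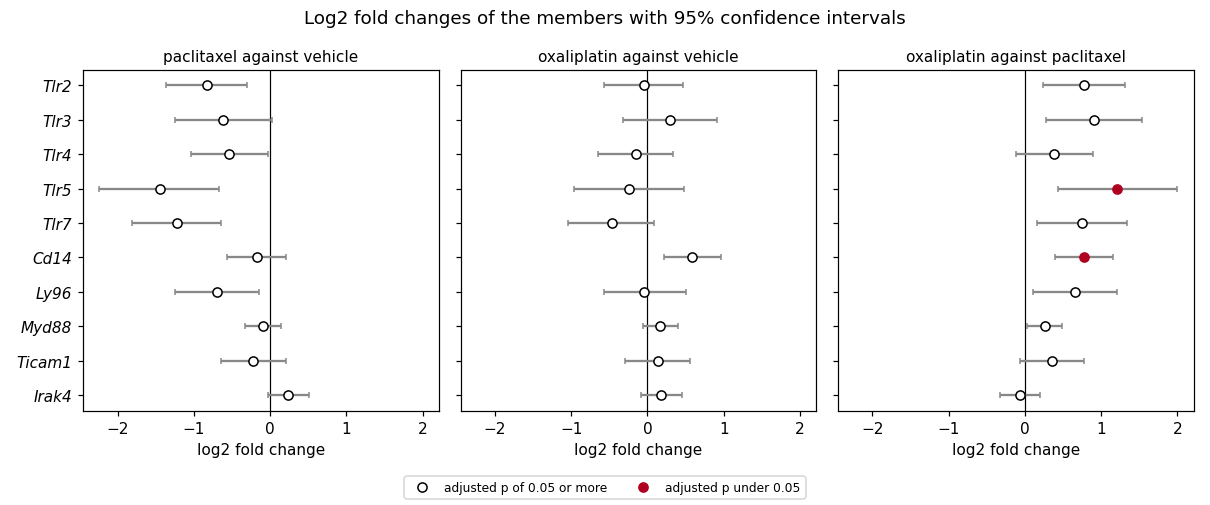
Log2 fold change of each member (points) with its 95% confidence interval (bars) in the 3 comparisons, with a filled point where the adjusted p is under 0.05. Only Tlr5, at 1.21, and Cd14, at 0.77, are filled, both in oxaliplatin against paclitaxel.

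Cell type markers moved in the same comparison. All 24 macrophage markers had positive estimates for oxaliplatin against paclitaxel, with a median of 0.66, and 9 were called higher, among them Cd68, a lysosomal protein of macrophages, with a log2 fold change of 1.24 ± 0.14 (edgeR, adjusted p = 0.000639). Summed macrophage markers were 435 to 529 CPM after oxaliplatin and 191 to 349 CPM after paclitaxel. Fibroblast markers (8 of 8 positive, 6 called higher), endothelial markers (10 of 10 positive, 4 called higher), B cell markers (7 of 7 positive, 5 called higher) and erythroid markers (8 of 8 positive, 8 called higher) also had positive estimates. Of 20 neuron markers, 10 were called lower after oxaliplatin. Neutrophil markers had 10 of 10 positive estimates with 0 called, and 1 of 4 dendritic cell markers tested was called lower. Of all genes tested, 6.6% were called higher and 4.71% lower. The part of these lists in the members' differences was not tested.

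The 2 drug comparisons against vehicle share their vehicle libraries, so their values are given side by side only. Tlr7 had estimates of -1.22 after paclitaxel and -0.47 after oxaliplatin, each against vehicle. Those of Tlr5 were -1.45 after paclitaxel and -0.24 after oxaliplatin, and those of Tlr2 -0.83 after paclitaxel and -0.05 after oxaliplatin. For Cd14 the estimates were -0.17 after paclitaxel and 0.59 after oxaliplatin.

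The genes whose levels followed each member most closely over the 12 libraries were found by the root mean square distance between standardised log2 levels, among 12826 genes, where 0 is the same shape. Tlr7 lay nearest to Csf1r, which encodes the receptor for macrophage colony-stimulating factor, at 0.23, then Clec10a at 0.28 and Nhlrc3 at 0.29. Tlr2 lay nearest to C5ar1, a complement receptor, at 0.30, then Tnfsf13 and Jam2, both at 0.32. Tlr4 lay nearest to Gcc2 at 0.26, Rb1cc1 at 0.30 and Upf2 at 0.34. Csf1r averaged 33.2 ± 8.1 CPM after paclitaxel, 51.6 ± 3.93 CPM after oxaliplatin and 69.1 ± 15.9 CPM in vehicle.

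Tlr3 lay nearest to the interferon-inducible gene Ifi47 at 0.35, the immunoproteasome subunit gene Psmb9 at 0.36 and Slamf9 at 0.38. Ly96 lay nearest to Snx14 and Cd36, both at 0.36, and to Pycard, an inflammasome adaptor, at 0.37. Cd14 lay nearest to Ntn1 and Enpep, both at 0.33, and to Fn1, which encodes fibronectin, at 0.36. Myd88 lay nearest to the tight junction gene Tjp1 at 0.30, Rttn at 0.33 and Arhgap29 at 0.34. Tlr5 had F13a1 at 0.42, with Col8a1 and Kcnk6 at 0.56, Ticam1 had Six5 and Zcchc8 at 0.52 and Ptger1 at 0.53, and Irak4 had Cpne8 at 0.47, Plekhg6 at 0.50 and Zdhhc23 at 0.55. Among the members, Tlr2 and Tlr7 were nearest to each other at 0.54 and Tlr7 and Irak4 farthest apart at 1.64.

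A list of 76 other genes of Toll-like receptor signalling gives the surroundings, and 63 of them were tested. For paclitaxel against vehicle 17 had positive and 46 negative estimates, with a median of -0.12, and edgeR called 0 (1 higher and 13 lower at an unadjusted p under 0.05). Of all genes tested, 0.12% were called and 7.88% were lower at that unadjusted p. The 6 other receptors tested all had negative estimates, with a median of -0.65. The smallest p belonged to Tlr13, a receptor for bacterial ribosomal RNA in mice, at 2.06 ± 0.724 CPM after paclitaxel and 4.06 ± 1.03 CPM in vehicle (edgeR, adjusted p = 0.203). Next came Vcan, which encodes versican, a matrix proteoglycan that can signal through TLR2, at 5.77 ± 1.58 CPM after paclitaxel and 9.59 ± 2.15 CPM in vehicle (edgeR, adjusted p = 0.214). The 16 listed adaptors and kinases had a median of -0.10 and the 10 inhibitors a median of 0.01.

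For oxaliplatin against vehicle 36 had positive and 27 negative estimates, with a median of 0.10. EdgeR called 2 higher, where 1.76% of all genes were called in either direction. Ikbke, a kinase that acts on interferon regulatory factors, had 8.44 to 13.0 CPM in the 4 oxaliplatin libraries, against 5.03 to 7.27 CPM in the 4 vehicle libraries. Irak3, a kinase relative that restrains MyD88 signalling, had 22.5, 17.9, 17.8 and 16.0 CPM after oxaliplatin, against 10.2, 11.8, 13.7 and 11.9 CPM in vehicle. Neither gene overlapped between the groups, with log2 fold changes of 0.77 ± 0.16 for Ikbke (edgeR, adjusted p = 0.0298) and 0.64 ± 0.15 for Irak3 (edgeR, adjusted p = 0.0463). Leaving out vehicle library 1, 2 or 4 or oxaliplatin library 1, 3 or 4 ended the call of Ikbke, as did the replicate block (adjusted p = 0.0566) and a fit of only the 2 groups (adjusted p = 0.0586). Leaving out any 1 of these libraries, oxaliplatin library 2 or paclitaxel library 2 or 3 ended that of Irak3, as did the replicate block (adjusted p = 0.107) and the fit with no filter (adjusted p = 0.053), with adjusted p-values up to 0.101 for Ikbke and 0.139 for Irak3.

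Between the drugs 50 had positive and 13 negative estimates, with a median of 0.24, and edgeR called 9 higher and 1 lower after oxaliplatin, with adjusted p-values of 0.00523 to 0.0488. In this comparison 11.3% of all genes were called, 6.6% higher and 4.71% lower. Among receptors and co-receptors the pathway genes called were Cd180, a Toll-like receptor relative of B cells and macrophages (log2 fold change 1.44 ± 0.33), and Lbp, which encodes lipopolysaccharide-binding protein (0.97 ± 0.29). Among signalling genes they were Ikbke (0.66 ± 0.16), the NF-kappaB subunit gene Nfkb2 (0.76 ± 0.13), the interferon regulatory factor gene Irf5 (0.68 ± 0.14) and Irak3 (0.73 ± 0.15). Icam1, an adhesion molecule induced by NF-kappaB, stood at 0.95 ± 0.20, and the matrix genes Vcan and Bgn at 1.23 ± 0.23 and 0.93 ± 0.22. Tollip, an inhibitor, averaged 138 ± 2.89 CPM after oxaliplatin and 165 ± 10.2 CPM after paclitaxel and fell by 0.26 on the log2 scale. The calls of Nfkb2, Irf5, Irak3, Icam1 and Vcan held in each of the 20 other settings tried, whereas those of Lbp, Tollip, Bgn, Cd180 and Ikbke were lost in 11, 10, 6, 2 and 1 of them. Reads of Bgn were not whole in 12 libraries.

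**Figure D5:**
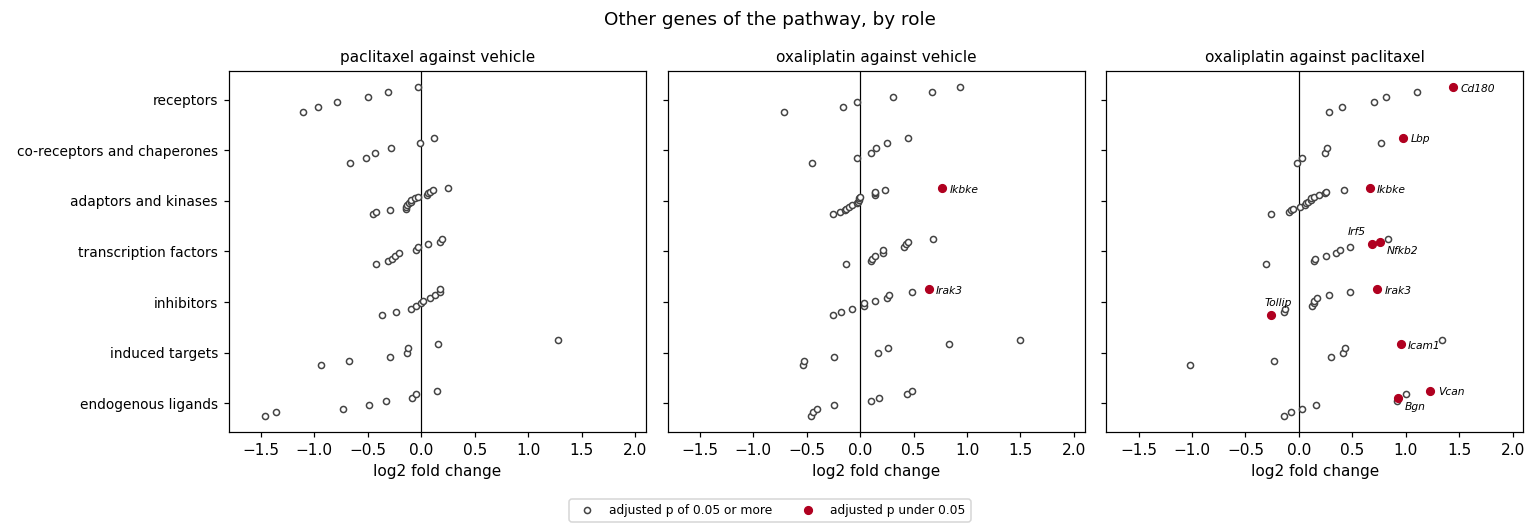
Log2 fold change of the 63 other pathway genes tested, by role, in the 3 comparisons, with filled and named points where the adjusted p is under 0.05. No point is filled for paclitaxel against vehicle, 2 are for oxaliplatin against vehicle and 10 for oxaliplatin against paclitaxel. Of all genes tested, 0.12%, 1.76% and 11.3% were called in these comparisons, in that order.

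The classical products of the pathway were little covered by the tests. Of 17 listed induced targets, 9 were under the expression filter, Tnf, Il6, Il10, Il12b, Ccl3, Ccl4, Cxcl2, Ptgs2 and Ifnb1, and Nos2 matched no listed symbol. The receptors Tlr10, Tlr11 and Tlr12 were also under the filter. Ccl2, a macrophage-attracting chemokine that was tested, had 11.9, 13.0, 20.2 and 20.3 CPM after paclitaxel, 14.2, 16.4, 11.7 and 13.2 CPM after oxaliplatin and 19.5, 27.7, 17.8 and 14.7 CPM in vehicle, with overlap among the 3 groups. Ccl2 was chosen here after its values were seen. The 7 induced targets tested had 2 positive and 5 negative estimates for paclitaxel against vehicle, from -0.94 to 1.28. For oxaliplatin against vehicle 4 were positive and 3 negative, from -0.53 to 1.5, and edgeR called 0 in either comparison. These ranges include Cxcl10, with 1 paclitaxel library far above the rest of its group, and Cxcl1, with 1 such oxaliplatin library. Between the drugs 5 were positive and 2 negative, and 1 was called higher after oxaliplatin, where 11.3% of all genes were called.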

How the data were processed

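RNA of rat dorsal root ganglia was sequenced in 12 libraries, and groups and replicate numbers were taken from the sample titles. Per the file headers, each deposited table gives an expected count and an FPKM value per gene. CASAVA 1.4 and Bowtie2 are named in the submitters' processing notes, and the quantification tool, strand setting and genome build are not given in the sources used here. Genes absent from a table were taken as 0. The members and the gene lists were chosen with earlier results of these data known.

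Expected counts deposited by the authors were rounded, then modelled in edgeR 4.0.16 (R 4.3.3) with its default filter (minimum count of 10), TMM factors and a robust quasi-likelihood fit in which all 12 libraries share 1 dispersion estimate and each of the 3 groups has a mean. The filter set aside 4343 genes. The common dispersion had a square root of 0.159, with 9 residual degrees of freedom. Tests were two-sided, with Benjamini-Hochberg adjustment over all 15809 genes. No libraries of a group agreed within sampling noise (chi-square per degree of freedom 8.07 to 44.9). Counts that are not whole, in over 6 libraries, mark a gene as uncertain.

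Levels between genes were compared in deposited FPKM. Alternatives used DESeq2 1.42.0, limma 3.58.1 (voom with quality weights, and limma-trend on log2 FPKM with a pseudocount of 1 or of 0.1), RLE factors, no filter, a replicate block, fits of only the groups compared, and each library left out. On simulated counts for paclitaxel (15622 genes) the fit called 86% of genes set to a 2-fold change and 99% of those set to 4-fold, and 4.6% of calls were unchanged genes. For oxaliplatin (15605 genes) these shares were 87%, 100% and 5.1%. The simulation gave each gene the spread usual at its level and let no library diverge. These shares therefore do not carry over to the members in the real libraries.

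The text names every member and the other pathway genes called in a comparison, or otherwise the 2 with the smallest p. It also names the 3 genes nearest to each member and some, not all, of the markers called. Ratios to macrophage markers and distances are log2 CPM with a prior count of 2 and have no test.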

Additional observations from a re-analysis of the deposited data

Results flagged for a closer look

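The effects of the drugs, each measured against the same vehicle libraries, differed between oxaliplatin and paclitaxel for 2 of the 10 members in edgeR's quasi-likelihood test of that difference, which called 11.3% of all genes. The shared vehicle cancels, so this is the same test as the third comparison above and not a second result. For Cd14 the log2 fold change against vehicle was 0.59 after oxaliplatin and -0.17 after paclitaxel, a difference of 0.77 ± 0.18 (adjusted p = 0.0186), and each of 4 oxaliplatin libraries lay above each of 4 paclitaxel libraries. For Tlr5 the log2 fold change was -0.24 after oxaliplatin and -1.45 after paclitaxel, a difference of 1.21 ± 0.37 (adjusted p = 0.0481), likewise without overlap and on few counts. The call of Tlr5 was kept in 7 of 20 other settings and lost in the rest, among them the replicate block (adjusted p = 0.0639) and the fit with no filter (adjusted p = 0.0544). That of Cd14 was kept in 18 of 20. The counts of Cd14 were not whole in 12 libraries, so the gene is uncertain: reads may be divided with another gene.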

How the results depend on the processing

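Over 20 other settings for each of the 10 members and 3 comparisons, 543 of the 600 log2 fold changes kept their direction and their side of the threshold, 30 passed it where they had not, 15 no longer passed it and 12 changed sign, all 12 of estimates between -0.24 and -0.04 that were not called. These were Tlr2 for oxaliplatin against vehicle without vehicle replicate 3 (0.10), without oxaliplatin replicate 4 (0.08) and with voom (0.06), where leaving out 1 library gave -0.21 to 0.10. The sign also changed for Tlr5 without vehicle replicate 3 (0.12, range -0.45 to 0.12), Ly96 without vehicle replicate 2 (0.06), without oxaliplatin replicate 4 (0.01), with voom (0.03) and with both FPKM settings (0.00, range with 1 library left out -0.10 to 0.06), and Irak4 for oxaliplatin against paclitaxel without paclitaxel replicate 2 (0.03, range -0.12 to 0.03) and with log2(FPKM + 1) (0.03) and log2(FPKM + 0.1) (0.04). The cause was not tested. Members called for paclitaxel against vehicle numbered 0, against 2 with DESeq2, 4 with voom and 0 to 3 with 1 library left out. For oxaliplatin against vehicle they numbered 0, against 1 with DESeq2, 1 with voom and 0 to 1 with 1 library left out. For oxaliplatin against paclitaxel they numbered 2, against 1 with no filter, 4 with DESeq2, 8 with voom, 4 with each FPKM setting and 0 to 5 with 1 library left out. Genes called in all were 19 for paclitaxel against vehicle (13 higher and 6 lower), against 238 with DESeq2, 2017 with voom, 12 higher and 9 lower with log2(FPKM + 1), and 10 to 1631 with 1 library left out. For oxaliplatin against vehicle they were 278 (166 higher and 112 lower), against 161 when only the 2 groups were fitted, 904 with DESeq2, 599 with voom, 256 higher and 74 lower with log2(FPKM + 1), 194 higher and 61 lower with log2(FPKM + 0.1), and 49 to 357 with 1 library left out. For oxaliplatin against paclitaxel they were 1788 (1044 higher and 744 lower), against 1016 with only the 2 groups, 2782 with DESeq2, 4726 with voom, 1507 higher and 277 lower with log2(FPKM + 1), 1456 higher and 263 lower with log2(FPKM + 0.1), and 571 to 3463 with 1 library left out. With a replicate block the genes called numbered 15, 72 and 986 in these 3 comparisons and the members called 0, 0 and 1 (Cd14). Same-numbered libraries showed little shared deviation (correlations of -0.23 to 0.16, with 1 of 12 above 0.1). The labels do not say whether the numbers pair the samples, and these correlations cannot settle it with so few libraries. Against 5 macrophage markers, the log2 ratio of Tlr2 was 0.19 higher after paclitaxel than in vehicle, in place of 0.01 higher against 24. That of Myd88 was 0.41 higher after oxaliplatin than in vehicle, in place of 0.23 higher against 24. At 9 to 17 counts per paclitaxel library, Tlr5 is the member that depth limits most.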

Other observations

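Cxcl10 and Cxcl1, both among the induced targets tested, each had 1 library far above the rest of a group. Cxcl10, an interferon-induced chemokine, had 1.45, 2.41, 13.1 and 2.15 CPM after paclitaxel, 1.5, 3.91, 1.75 and 2.25 CPM after oxaliplatin and 1.44, 1.7, 2.29 and 2.41 CPM in vehicle. The third paclitaxel library held 221 of its counts, and the gene was chosen after its values were seen. Cxcl1 had 0.635, 1.78, 0.395 and 0.674 CPM after oxaliplatin and 0.231, 0.409, 0.401 and 0.172 CPM in vehicle. After paclitaxel it had 0.423, 0.176, 0.651 and 0.116 CPM. The second oxaliplatin library held 31 counts of Cxcl1, which was likewise chosen after its values were seen. S100a9, a neutrophil protein that can signal through TLR4, had 5.56 to 16.9 CPM after paclitaxel, 9.48 to 36.4 CPM after oxaliplatin and 17.7 to 40.4 CPM in vehicle, and every paclitaxel library lay below every vehicle library. S100a9 was also named after its values were seen.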
